A study of Danio rerio with 3 samples.

Results

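The sodium pump, or Na,K-ATPase, subunit family was described on 3 two-colour arrays that compared zebrafish embryos injected with a FoxH1 morpholino with embryos injected with a control morpholino. Members were the oligonucleotide probes (oligos) whose symbol column or RefSeq accession names an alpha (atp1a) or beta (atp1b) subunit, or whose title gives Na+/K+ or sodium/potassium with ATPase. The spellings Na,K-ATPase and Na/K-ATPase were counted as the same name. This gave 42 of 33723 oligos and 14 of the 1080 genes with a symbol, with 24 oligos for 8 alpha genes and 18 oligos for 6 beta genes. The family was chosen by the low morphant-over-control ratio of atp1b1a on these same arrays, so all its ratios are given as a description, with no test.

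Each array carried RNA from a pool of 50 FoxH1 morphants together with RNA from a pool of 50 control morphants, both at 40% epiboly, when cells spread over the yolk before gastrulation. A morpholino is a modified antisense oligonucleotide that interferes with translation or splicing of its target. FoxH1, a forkhead protein, binds DNA together with Smads to pass on the Nodal signal. Both pools were thus injected embryos. Per the labels, the morphant pool was labelled with Cy3 for arrays 1 and 2 and, in a dye swap, with Cy5 for array 3. Per the design text the work was done 3 times independently, so n = 3 pairs of pools. The 3 sample titles share a number code. The labels do not say what it stands for, so whether the arrays shared a run is not known here.

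The sodium pump moves sodium out of the cell and potassium in at the cost of ATP. Its catalytic alpha subunit carries the ion path and the phosphorylation site. The glycosylated beta subunit is needed for the alpha subunit to fold and reach the plasma membrane, and it takes part in cell adhesion. In zebrafish, the pump is known for roles in heart tube extension, brain ventricle inflation and left-right patterning, and mutants in atp1b1a, named psoriasis, have epidermal overgrowths.

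The labels alone do not settle the sign of the array 3 ratio. The ratio was taken as green over red on all 3 arrays, with the green column read as the morphant. For array 3 this assumes that the submitters ordered the columns by sample and not by dye, a reading that rests on measured values. Local background was higher in red than in green at 5.50% of spots on array 1, 5.15% on array 2 and 94.1% on array 3. Across 132 random negative control spots, which share slides and dyes, the log2 ratios correlated at r = 0.93 for array 1 with array 2, and at r = -0.73 for array 3 with the mean of the other two. Across 35 Arabidopsis control spots these values were 0.66 and -0.89. In columns ordered by sample, a dye effect at control spots changes sign on the swapped array, and in columns ordered by dye it does not. Values with array 3 turned, that is with the opposite sign there, are also given for every measured member gene and for the counts of signs. Of all oligos, 26210 were usable on all 3 arrays, covering 1043 named genes. Limma called 0 oligos and 0 genes at an adjusted p under 0.05 (a background of 0% of each), and 2972 oligos (11.3%) and 80 genes (7.67%) had an unadjusted p under 0.05. The one-sample test without moderation also called 0 of each. The targeted transcript, foxh1, was at log2 ratios of -0.02, 0.07 and -0.13.

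Of the 42 family oligos, 29 were usable on all 3 arrays, and 13 were not. The oligos came from 3 commercial sets, with 9 of 14 Compugen, 10 of 15 MWG and 10 of 13 Operon oligos usable throughout. They covered 12 genes, 7 of them with 3 such oligos, 3 with 2 and 2 with 1. The gene atp1b1b, the closest paralog of atp1b1a by name, had no oligo usable on more than 1 array, and atp1a1a.2 had none usable on all 3. Neither gene has a value here. For atp1b1b, the MWG oligo gave -0.32 on array 3 and the Operon oligo -0.52 on array 1. In both columns of all 3 arrays, 27 of the 29 oligos exceeded 2 SDs of the local background, while 10 exceeded the median of the random negative controls and 2 exceeded their 95th percentile. The exceptions to the first count were the MWG oligo of atp1a1a.4 and the Operon oligo of atp1b2a, whose morphant column was above 2 background SDs on 2 arrays and on 1 array. The 2 oligos above the 95th percentile were the Operon oligos of atp1a2a and atp1b3b. In both columns of all 3 arrays the random control median was above the median over all oligo spots (on array 1, 349.7 against 256.9 and 1191 against 639.0). The shares of all oligos above these limits are not given here, so the counts are not read as a family trait.

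The beta subunit gene atp1b1a had the lowest morphant-over-control ratio in the family. Its log2 ratio was -2.16, -1.64 and -1.27 on arrays 1, 2 and 3, with a mean of -1.69 ± 0.45 (SD, n = 3), or 0.309 on the linear scale. Of the 1043 named genes, 8 had a lower mean. All 3 arrays lay below 0. Turning array 3 put it above 0 and the mean at -0.84, and 39 named genes, 0 of them in the family, had a lower mean. Since the RNA came from whole embryos, fewer cells of a type and less RNA per cell cannot be told apart.

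Before normalization, the spot intensities of atp1b1a differed in the same direction on arrays 1 and 2. The Compugen oligo read 269.9, 131.6 and 517.4 in the morphant column on arrays 1, 2 and 3, against 7951, 3268 and 877.0 in the control column. The MWG oligo read 121.3, 165.9 and 378.6 in the morphant column, against 1969, 834.2 and 333.7 in the control column. The Operon oligo read 481.3, 287.7 and 920.0 in the morphant column, against 2210, 1595 and 460.3 in the control column. The morphant column was the dimmer one for all 3 oligos on arrays 1 and 2, where it was also the dimmer one overall (medians of 256.9 and 189.2 in the morphant column, against 639.0 and 448.2 in the control column). On array 3, where the morphant column was the brighter one overall (median 488.4 in the morphant column and 202.7 in the control column over all oligo spots), it was dimmer for the Compugen oligo only. The array 3 ratios of the MWG and Operon oligos are therefore below 0 only after the overall difference between the columns is removed. The control column of all 3 oligos was above the random control median on all 3 arrays. The morphant column of the Compugen and MWG oligos was above it on 0 arrays, and that of the Operon oligo on 3.

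The 3 atp1b1a oligos had 1 sign, with array 3 read by sample, but different sizes. The Compugen oligo was at -3.26, -3.09 and -2.18 (mean -2.84 ± 0.58, SD, n = 3 arrays), and 0.202% of all oligos had a lower mean. The MWG oligo was at -2.59, -0.93 and -1.22 (mean -1.58 ± 0.89), with 1.45% of all oligos lower. The Operon oligo was at -0.64, -0.92 and -0.42 (mean -0.66 ± 0.25), with 9.15% lower. With array 3 turned, the means of the Compugen, MWG and Operon oligos were -1.39, -0.77 and -0.38, with between 3.03% (Compugen) and 24.8% (Operon) of all oligos lower, and array 3 had the opposite sign to arrays 1 and 2 in each. The means of the 3 oligos spanned 2.18 log2 units, more than for any other family gene. Each oligo is 1 spot per array, and the files hold no oligo sequences, so where each lies in the transcript is not known here.

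The other beta genes encode alternative partners of the same alpha subunits. Of the 4 measured, atp1b3a was below 0 on all 3 arrays, atp1b3b above 0, and both atp1b2 genes were split. In mammals, beta 2 is known as the adhesion molecule on glia, and beta 3 as a broadly expressed form. Both atp1b3 genes had 2 or 3 measured oligos. The gene atp1b3a was at -0.27, -0.04 and -1.33 (mean -0.55 ± 0.69), and array 3 set most of that mean, which was -0.15 without replicate 3. With poor spots kept, atp1b3a was at 0.18, on the other side of 0. Its MWG oligo was steady at -0.68, -0.84 and -0.96, whereas its Compugen oligo, named through a shared UniGene cluster, was at 0.15, 0.76 and -1.69. The gene atp1b3b lay on the other side, at 0.84, 0.65 and 0.42 (mean 0.63 ± 0.21). Its Compugen and MWG oligos were above 0 on all 3 arrays (means 0.83 ± 0.21 and 0.59 ± 0.19). Its Operon oligo was at 1.1, 0.93 and -0.56. That Operon oligo was very bright, at 29603, 23815 and 38267 in the morphant column, against 41576, 39002 and 26351 in the control column. On each array this difference had the opposite sign to the ratio, so the signs of its ratios rest on the normalization. Saturation or non-specific signal at this spot was not tested. The mean of atp1b3b was the highest of the 12 genes. With array 3 turned 5 genes were above it, and atp1b3b was then at 0.36 and atp1b3a at 0.34. With the brightest oligo of each gene atp1b3b was at 0.49 and atp1a3a at 0.67. With the literal spellings of the member rule it was at 0.54, below atp1a2a at 0.60.

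The atp1b2 genes differed between arrays 1 and 2 and the dye-swapped array 3. The gene atp1b2a was at 0.59, 0.52 and -1.16 (mean -0.02 ± 0.99), and atp1b2b at 1.19, 0.35 and -0.71 (mean 0.28 ± 0.95). Arrays 1 and 2 lay above 0 and array 3 below 0 for both genes. Turned means were 0.76 for atp1b2a and 0.75 for atp1b2b. The atp1b2a oligos had means of 0.52 (Compugen), 0.06 (MWG) and -0.65 (Operon). In the Operon oligo the morphant column read 5.60, 4.80 and 148.6, against 264.6, 166.6 and 50.3 in the control column, so its ratio on arrays 1 and 2 rests on morphant signals near 0. With oligos above background in both columns, atp1b2a was at 0.29. Over all alternatives it ran from -0.58 with the authors' deposited ratios, and -0.57 with median centring, to 0.76 with array 3 turned. The MWG oligo of atp1b2b was at 2.73, 1.43 and -0.91, and its Operon oligo at -0.35, -0.73 and -0.51, below 0 on all 3 arrays. That MWG oligo was dim, at 92.6, 75.2 and 96.8 in the morphant column, against 54.5, 52.2 and 90 in the control column. Neither column exceeded the random control median on any array. With the brightest oligo of each gene atp1b2b was at -0.53.

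Among the alpha genes, atp1a1a.1 had the closest agreement between oligos and arrays. This gene encodes the alpha 1 subunit that zebrafish need for extension of the heart tube. Its log2 ratio was -0.13, -0.21 and -0.36 (mean -0.23 ± 0.12, SD, n = 3), and its 3 oligos had means of -0.22, -0.21 and -0.27. All 9 values lay below 0. With median centring in place of loess its mean was -0.38, and with array 3 turned it was 0.01. The Compugen oligo read 3204, 1130 and 2561 in the morphant column, against 12115, 4395 and 1223 in the control column.

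The other copies of the alpha 1a cluster, which lie next to each other in the reference assembly, gave mixed values. The gene atp1a1a.3 was at 0.43, 0.22 and -0.30 (mean 0.12 ± 0.37), from a Compugen oligo at -0.36 ± 0.33 and an MWG oligo at 0.60 ± 1.05. Its turned mean was 0.32. The gene atp1a1a.4 was at 0.06, 0.14 and -0.29 (mean -0.03 ± 0.23), at -0.84 with median centring and at 0.16 with array 3 turned. Its MWG oligo read 0.40 in the morphant column and 230.1 in the control column on array 1, and its log2 ratio after the loess correction was 0.17 there. The copies are related in sequence, so the oligos could share signal between them, and this was not tested. The gene atp1a1b, outside the cluster, had 1 measured oligo, at -0.66, -0.69 and -0.08 (mean -0.48 ± 0.34, and -0.42 with array 3 turned).

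The genes atp1a2a, atp1a3a and atp1a3b encode the alpha 2 and alpha 3 subunits, which in mammals are the forms of muscle and glia and of neurons. In zebrafish, alpha 2 has a known role in left-right patterning. Its gene atp1a2a had 1 measured oligo, from Operon, at 1.41, 1.38 and -0.99 (mean 0.60 ± 1.38). That oligo read 36485, 35689 and 39995 in the morphant column, against 40783, 41819 and 38107 in the control column. The columns thus differed little before normalization on all 3 arrays, and the ratios of atp1a2a rest largely on the normalization. Column medians over all oligo spots lay between 189.2 and 639.0. The Compugen and MWG oligos of atp1a2a, not usable on all 3 arrays, read between 26.8 and 155.3 where usable. Saturation or non-specific signal at the Operon spot was not tested. The gene atp1a3a was at 0.98, 0.83 and -0.52 (mean 0.43 ± 0.83), and atp1a3b at 0.51, 0.50 and -0.87 (mean 0.05 ± 0.79). For these 3 genes arrays 1 and 2 lay above 0 and array 3 below. Their means with array 3 turned were 1.26 for atp1a2a, 0.78 for atp1a3a and 0.63 for atp1a3b. The Compugen oligos of atp1a3a (1.96, 1.98 and -1.94) and atp1a3b (2.40, 2.54 and -3.02) were on array 3 nearly opposite to arrays 1 and 2. The MWG and Operon oligos of atp1a3b were below 0 on arrays 1 and 2 and above 0 on array 3.

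The Operon oligo of atp1a3a was printed 17 times on each array, which gives a direct measure of spot-to-spot error at its own low signal. Neither column of this oligo exceeded the random control median on any array, so brighter spots are not covered. Its usable spots had a mean log2 ratio of 0.34 with an SD of 0.90 on array 1 (17 spots), -0.02 with an SD of 1.05 on array 2 (13 spots), and 0.90 with an SD of 1.39 on array 3 (16 spots). Single spots ran from -1.69 to 1.78 on array 1. Its mean intensities were 144.1, 111.7 and 268.4 in the morphant column, against 293.9, 226.1 and 60.2 in the control column. Every other family oligo was a single spot per array.

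Over the 12 genes, 4 lay below 0 on all 3 arrays and 1 above, against 16.5% below and 10.9% above among all named genes. The 4 were atp1b1a, atp1b3a, atp1a1b and atp1a1a.1, and the gene above 0 was atp1b3b. The remaining 7 genes were above 0 on arrays 1 and 2 and below 0 on array 3, a pattern found in 44.3% of all named genes. All 12 genes except atp1b3b were below 0 on array 3. The family medians were 0.47, 0.28 and -0.62 on arrays 1, 2 and 3, beside 0.23, 0.19 and -0.32 for all named genes. For 8 of the 12 genes the SD over arrays exceeded the size of the mean. The median SD of the 12 genes was 0.57, beside 0.53 for all named genes. The median of the 12 means was 0.01, beside 0.06 for all named genes.

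Counted by oligo, 10 of 29 were below 0 on all 3 arrays and 2 above, against 17.6% below and 17% above among all oligos. The 10 hold the 3 atp1b1a and the 3 atp1a1a.1 oligos, which share targets and are not separate genes. The median of the 29 means was -0.21, beside 0.02 over all oligos, and -0.01 without atp1b1a. Medians by array were 0.15, -0.14 and -0.50 for the family and 0.01, -0.02 and 0.01 for all oligos. Without replicate 3 the median was -0.03, with poor spots kept 0.06 and with array 3 turned 0.03. A mean log2 ratio under -1 was found for 2 of 29 family oligos, both of atp1b1a, and a mean over 1 for 1, the MWG oligo of atp1b2b, beside 4.27% and 4.93% of all oligos. Neither column of that atp1b2b oligo exceeded the random control median on any array. With array 3 turned, 2 of 29 were under -1, the Compugen oligo of atp1b1a (-1.39) and the Operon oligo of atp1b2a (-1.03), and 5 over 1, beside 6.38% and 10.7% of all oligos. The means of the 26 oligos outside atp1b1a lay between -0.83 and 1.08. Of the 12 genes, 1 (atp1b1a) had a mean under -1 and 0 a mean over 1, beside 3.26% and 2.4% of all named genes. With array 3 turned, 0 had a mean under -1 and 1 (atp1a2a) a mean over 1, beside 2.68% and 16% of all named genes.

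Set against its paralogs on the same array, atp1b1a minus the mean of the 11 other family genes was -2.62, -1.97 and -0.71 log2 units on arrays 1, 2 and 3. The mean difference was -1.77 ± 0.97 (SD, n = 3), and -1.78 ± 1.11 against the other 4 beta genes. Both values lie close to the mean ratio of atp1b1a itself, -1.69. Of the 11 genes, 10 were above atp1b1a on all 3 arrays and atp1b3a on 2. This was the reverse with array 3 turned, where atp1b3a was above it on all 3 arrays and the other 10 genes on 2. The gene atp1b1a was chosen for its low ratio, and only 8 of the 1043 named genes had a lower mean, so most named genes had a mean above it. The share of all named genes above it on all 3 arrays is not given here, so these counts are not read as a family trait. On array 3 atp1b3a was lower than atp1b1a by 0.05. The single differences ran from -2.33 ± 0.66 against atp1b3b to -1.15 ± 1.05 against atp1b3a. With array 3 turned the mean difference was -1.29, and without replicate 3 it was -2.29. In the order of the 12 genes by mean, only 1 of 11 neighbouring pairs kept its order on all 3 arrays, atp1a1a.1 below atp1a1a.4 (difference 0.21 ± 0.13). The order of the genes differed with array 3 turned, and 3 of 11 neighbouring pairs then kept it. The step between atp1b1a and its neighbour atp1b3a was 1.15 ± 1.05.

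Much of the spread within the family lay between array 3 and arrays 1 and 2. Only array 3 is dye-swapped, so dye orientation and replicate cannot be told apart. Of the 29 oligos, 27 had 1 sign on arrays 1 and 2. On array 3, 15 of these had the other sign, 11 of them above 0 on arrays 1 and 2 and 4 below. Across the 29 oligos, the ratios correlated at r = 0.93 between arrays 1 and 2, -0.24 between arrays 1 and 3 and -0.37 between arrays 2 and 3, with oligos sharing slides, dyes and genes. Over all 26210 oligos these values were 0.82, -0.35 and -0.46. The median size of the difference between array 3 and the mean of arrays 1 and 2 was 0.82 for the family and 0.67 for all oligos. It was 1.85 for the Compugen family oligos, 0.69 for MWG and 0.66 for Operon, beside 0.75, 0.63 and 0.57 for all oligos of these sets. With array 3 turned, 4 family oligos were below 0 and 11 above 0 on all 3 arrays, against 24.7% and 24.8% of all oligos. Then 0 of 12 genes were below and 7 above on all 3 arrays, against 15.6% and 44.3% of all named genes, and atp1b1a had a mean of -0.84 with its signs split.

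Oligos of 1 gene disagreed in sign in much of the family and of the array as a whole. In 5 of 10 family genes with at least 2 measured oligos all oligo means had 1 sign, beside 43.4% of 814 such genes overall. These were atp1b1a, atp1b3a, atp1b3b, atp1a1a.1 and atp1a3a. The count was 2 of 10 with array 3 turned, beside 32.6% overall. The median range of oligo means within a gene was 0.79 in the family and 0.66 over all such genes. Outside the member rule, 2 EST oligos share a UniGene cluster with members. The one in the atp1b2a cluster was at -0.71, -0.28 and -0.41, and the one in the atp1a3a cluster at -0.99, -0.96 and -0.02.

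The 3 named genes whose ratios lay nearest to atp1b1a over the 3 arrays, by mean absolute difference, were etv4 (0.27), notch3 (0.31) and dldh (0.36). The ETS transcription factor gene etv4 was at -2.14, -1.97 and -0.81, the Notch receptor gene notch3 at -2.17, -0.98 and -1.01, and dldh, for a mitochondrial dehydrogenase subunit, at -2.96, -1.87 and -1.20. With 3 arrays this likeness rests mainly on size.

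Other ion transport genes were hardly represented among the named genes. Of 89 listed genes for pump regulators, calcium pumps, exchangers, cotransporters, channels and the vacuolar proton pump, 2 were measured under a symbol. Of these, 0 passed the test in either direction, as did 0 of all 1043 named genes. Of the 33723 oligos, 30672 had no symbol, so other listed genes may be on the arrays without their name. The proton pump subunit genes atp6v0ca and atp6v1e1b were at 0.27 ± 0.20 and -0.25 ± 0.35 (SD, n = 3).

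Markers of the enveloping layer, the outermost cells of the embryo, and of the yolk syncytial layer, which lies on the yolk, are given beside atp1b1a. Of 10 listed enveloping layer genes, 6 were measured, and 4 lay below 0 on all 3 arrays and 1 above, beside 16.5% and 10.9% of all named genes, with array means of -0.56, -0.54 and -0.39. The mean was below 0 for 5 of the 6, beside 44.4% of all named genes. It was below 0 for as many with array 3 turned, beside 36.9%, but then 1 of 6 lay below 0 on all 3 arrays and 0 above, and krt4 was at -0.36. The keratin gene krt4 was at -1.26 ± 0.09, cldnf at -0.84 ± 0.22 and klf2b at 0.76 ± 0.18. Of 8 yolk syncytial layer genes, 3 were measured, with gata5 at -1.11 ± 0.27, gata6 at -0.76 ± 0.41 and fn1a at 0.57 ± 0.05. With array 3 turned they were at -0.57, -0.43 and 0.22. In RNA of whole embryos, signal of these 3 genes from that layer cannot be told apart from signal of other cells. No ionocyte marker of 7 listed was measured under a symbol. The 4 nervous system and 4 muscle markers had medians of 0.08 and -0.03, with 0 genes of 1 sign on all 3 arrays. With array 3 turned, 0 nervous system and 1 muscle gene lay below 0 on all 3 arrays, and 2 of each above. The SDs over arrays reached 1.30 for gfap and 1.51 for myhz2. The embryos were sampled before gastrulation, so these medians are not a measure of nervous system or muscle tissue. The part of these layers in the atp1b1a ratio was not tested.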

How the data were processed

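RNA of FoxH1 morphant and control pools was compared on 3 two-colour arrays, 1 group of 3 ratios. Per the file headers, the deposited intensity columns hold mean red and green spot signals, already background-subtracted, with the local background intensity and its SD. The authors' ratio is red over green divided by a constant per array, and their deposited quality score is 0 for poor spots (13.1% to 15.4% of oligo spots), which were left out. The authors' deposited log2 table equals minus log2 of that ratio within 0.01. The image analysis program is not given in the sources used here.

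Log2 green over red was normalized by loess (span 0.3) over oligo spots, spots of an oligo were averaged, and an oligo was fitted where every array had a usable spot and at least 2 arrays had a signal over 2 background SDs in 1 of the columns. The signal filter removed no oligo. Oligos of a gene were averaged. Symbols came from the files' columns, the RefSeq table of assembly GRCz12tu (1306 of 1379 RefSeq oligos found) and shared accessions or UniGene clusters. The whole table was fitted with limma 3.58.1 in R 4.3.3 (lmFit, eBayes, Benjamini-Hochberg), and the code was tested on simulated data. The simulated ratios took their spread from arrays 1 and 2 only. They lack the difference to array 3, so they do not bear on the absence of calls. Tables were joined in Python 3.11.15.

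The members, lists and alternatives were chosen with earlier results of these data known. Named are all members, the 3 genes nearest to atp1b1a, and listed genes. The number of arrays limits the precision. With 1 of 3 arrays swapped and no dye term in the main fit, dye effects do not cancel in a mean. A dye term gives both dye orientations equal weight. With it atp1b1a was at -1.59, atp1b3a at -0.74, atp1a1b at -0.38, atp1b2a at -0.31 and atp1a1a.1 at -0.27. The genes atp1a3b and atp1a1a.4 were at -0.18 and -0.09, and atp1a1a.3 and atp1b2b at 0.02 and 0.03. The genes atp1a3a, atp1a2a and atp1b3b were at 0.19, 0.20 and 0.58.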

Additional observations from a re-analysis of the deposited data

How the results depend on the processing

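The atp1b1a ratio was below 0 in all 13 alternatives run, from -2.84 with the brightest oligo to -0.84 with array 3 turned, and from -1.90 to -1.46 when 1 replicate was left out. Its difference from the paralogs ran from -2.83 with the brightest oligo to -1.29, and from -2.29 to -1.34 when 1 replicate was left out. The count of family oligos below 0 on all 3 arrays was 4 of 29 with array 3 turned, beside 24.7% of all oligos. It was 10 to 14 when 1 replicate was left out (2 arrays then count), which is not comparable with the count on 3 arrays. The share of all oligos below 0 on those 2 arrays is not given here, so these counts are not read as a family trait. Limma's calls over the whole table numbered 2496 oligos and 305 genes with array 3 turned, 0 to 5924 oligos and 0 to 505 genes when 1 replicate was left out, and 0 in the other alternatives. Without replicate 3 both arrays have 1 dye orientation, so each oligo's dye effect enters with 1 sign. If the columns of array 3 are ordered by sample, turning it likewise gives each oligo's dye effect 1 sign on all 3 arrays. What part of these calls is dye effect was not tested.

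Of 146 paralog values under the alternatives, 21 had the other sign. They belong to 7 of 11 paralogs, while atp1a1b, atp1a2a, atp1a3a and atp1b3b kept 1 sign. With poor spots kept atp1a1b was at -0.08, near 0. Every alternative holds array 1 or array 2, where atp1a2a and atp1a3a were above 0. On array 3 they were at -0.99 and -0.52, so their kept sign is not agreement between arrays. The literal wording of the member rule, an alternative chosen after seeing the data, gave -0.83 for atp1b3a. Each ratio already pairs the 2 pools of an array. The fit was thus paired by array, and no further blocking was possible because there are no separate groups of samples left to block on. Low signals limit several genes: no oligo of atp1a3a or atp1a1a.3 exceeded the random control median in either column on any array.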
